A study of Mus musculus with 12 samples.

Results

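Among 8 liver tumors of mice lacking the atypical E2F repressors, 3 had target genes of beta-catenin above every control liver, and they are described here against the other 5. The 3 tumors are DKO 2, DKO 4 and TKO 4, in which all of Glul, Axin2, Lgr5 and Tbx3 exceeded the highest of 4 control livers. The other 5 are DKO 1, DKO 3, TKO 1, TKO 2 and TKO 3, in which at most 2 of those 4 genes did. The series holds 12 libraries of polyadenylated RNA in all, 4 each of control liver, DKO tumor and TKO tumor. Control livers were non-tumor tissue of wild-type mice. DKO tumors were spontaneous liver tumors of the genotype Alb-Cre-E2f7 E2f8 knockout, while TKO tumors had the genotype Alb-Cre-Rb1 E2f7 E2f8 knockout, so every tumor lacked E2f7 and E2f8 in hepatocytes and the TKO tumors lacked Rb1 as well. Cre was driven by the albumin promoter and therefore acts in hepatocytes, while endothelial, Kupffer, stellate and blood cells of the same tissue keep the genes. Mice had been bred into the FVB background and were followed to a humane end point, and the labels give their age only as adult. The 3 tumors were chosen by their own counts of beta-catenin target genes, with Glul, Axin2, Lgr5 and Tbx3 as markers. The contrast between the 3 and the 5 tumors is therefore a description, with values, log2 fold changes and their errors but no p-value for any gene.

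Totals ran from 9165812 to 16424973 counts per library, and albumin alone took from 4.82% of the counts in TKO 4 to 22.7% in DKO 1. Of 26301 genes in the table, 13882 passed the low-count filter. CPM are read counts scaled to a common library size after TMM normalisation, a fold change is log2 of the 3 tumors over the other 5 with its standard error (SE), and levels of different genes are not compared, since CPM are not scaled to gene length. Rb1 measured 3.21 to 5.47 CPM in the TKO tumors and 6.52 to 11.3 CPM in the other 8 libraries. E2f7 stood between 0.236 to 1.84 CPM in the tumors and between 0.542 to 1.11 CPM in the control livers, and E2f8 between 7.59 to 52.2 CPM and 4.52 to 8.97 CPM. Over the whole gene, the counts of E2f7 were thus low and overlapped the control livers, and those of E2f8 were not lower in the tumors. The counts of neither gene check its deletion. TKO 3 was the tumor nearest to the control livers. Its log2 CPM correlated with the control mean at r = 0.977 across genes, with 787 genes at least 2-fold away, whereas the other 7 tumors had r from 0.933 to 0.964 and 1563 to 2149 such genes.

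In the canonical Wnt pathway, ligands bind Frizzled and LRP receptors, a destruction complex built on Axin and APC is shut off, and beta-catenin enters the nucleus, where it acts with TCF and LEF factors. Many of its targets, Axin2, Nkd1, Notum, Rnf43 and Znrf3 among them, are themselves brakes on the pathway and serve as its readout. In the liver, Wnt ligands and R-spondins from endothelial cells of the central vein keep the pathway active in the hepatocytes around that vein, which make glutamine and carry much of the drug metabolism. Hepatocytes around the portal vein have little of it and carry the urea cycle and gluconeogenesis.

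TCF and LEF factors are known to bind the letters CTTTGAT and CTTTGAA. Both were searched on both strands in RefSeq promoters of 300 bases, 250 before and 50 after the start, on GRCm38.p6. Both share their first 6 letters. Of all 32851 promoters, 8.65% held at least 1 of them. Of the tested Wnt targets described below, 7 of 14 had a listed promoter, and 2 of their 10 promoters (20%) held a match. Among pericentral genes the share was 6 of 22 promoters (27.3%), and among periportal genes 2 of 18 (11.1%). The promoters of Sp5, Slc1a2 and Lect2 are shown because all 3 genes were separated between the tumors and their promoters hold the first of them or its reverse complement, in capitals. Tnfrsf19, separated as well, held a match in 1 of its 2 listed promoters, 202 bases before that start, and is not printed. The Sp5 promoter is chr2:70474673-70474972 on the plus strand, with the match starting 104 bases before the start. That of Slc1a2 is chr2:102706188-102706487 on the plus strand, with the match 207 bases before the start. That of Lect2 is chr13:56548489-56548788 on the minus strand, with the match 32 bases before the start.
Sp5: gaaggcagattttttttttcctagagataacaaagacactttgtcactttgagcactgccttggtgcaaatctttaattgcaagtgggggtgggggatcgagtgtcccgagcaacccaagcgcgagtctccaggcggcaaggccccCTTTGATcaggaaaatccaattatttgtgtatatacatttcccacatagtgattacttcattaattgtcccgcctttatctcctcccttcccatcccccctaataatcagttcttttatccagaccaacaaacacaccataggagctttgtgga
Slc1a2: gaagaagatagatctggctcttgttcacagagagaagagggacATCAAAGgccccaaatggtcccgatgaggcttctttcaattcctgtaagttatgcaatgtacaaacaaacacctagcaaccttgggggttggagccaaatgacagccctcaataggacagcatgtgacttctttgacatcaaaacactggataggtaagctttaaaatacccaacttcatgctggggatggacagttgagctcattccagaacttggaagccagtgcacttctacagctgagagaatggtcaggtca
Lect2: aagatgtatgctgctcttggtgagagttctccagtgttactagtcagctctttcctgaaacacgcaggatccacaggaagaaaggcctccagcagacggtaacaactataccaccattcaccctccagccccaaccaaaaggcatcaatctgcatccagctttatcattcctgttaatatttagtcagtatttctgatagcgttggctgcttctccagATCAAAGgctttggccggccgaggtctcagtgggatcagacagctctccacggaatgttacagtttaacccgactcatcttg
The listed promoters of Axin2, Glul, Nkd1, Rnf43, Tcf7 and Oat held no such letters.

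The 4 genes that chose the tumors come first, in a fixed order of libraries: control livers 1 to 4, then DKO 1, DKO 3, TKO 1, TKO 2 and TKO 3, then DKO 2, DKO 4 and TKO 4. Glul (Entrez 14645, mm9 chr1:155747074-155756853, plus strand), which encodes glutamine synthetase, measured 653, 781, 607 and 463 CPM in the control livers, 223, 473, 256, 213 and 574 CPM in the other tumors and 3138, 7472 and 10331 CPM in the 3 high tumors. The lowest of the 3 tumors was at more than 4 times the highest control liver, and 3 of the other 5 tumors lay below every control liver. Axin2 (Entrez 12006, mm9 chr11:108781663-108812097, plus strand), a scaffold of the destruction complex, measured 9.42, 9.59, 7.05 and 4.47 CPM in the control livers, 2.99, 5.97, 2.53, 3.55 and 9.97 CPM in the other tumors and 45.8, 41.3 and 75.0 CPM in the 3 high tumors. Lgr5 (Entrez 14160, mm9 chr10:114887367-115024836, minus strand), the R-spondin receptor, measured 2.74, 6.27, 3.19 and 2.27 CPM in the control livers, 0.997, 2.19, 1.93, 2.13 and 2.07 CPM in the other tumors and 20.7, 22.7 and 44.1 CPM in the 3 high tumors. In Lgr5 all 5 other tumors lay below every control liver. Tbx3 (Entrez 21386, mm9 chr5:120120678-120134733, plus strand), a T-box transcription factor, measured 16.5, 14.5, 11.2 and 9.23 CPM in the control livers, 5.44, 7.93, 4.46, 6.82 and 23.4 CPM in the other tumors and 35.8, 88.3 and 71.1 CPM in the 3 high tumors. The log2 fold changes between the 3 and the 5 tumors were 4.33 ± 0.44 (SE) for Glul, 3.43 ± 0.41 for Axin2, 3.96 ± 0.36 for Lgr5 and 2.76 ± 0.47 for Tbx3, and these values made the division. Just inside it was Tbx3 in DKO 2, at 35.8 CPM against a highest control of 16.5. Just outside was TKO 3, which passed the highest control in Tbx3 (23.4 CPM) and barely in Axin2 (9.97 against 9.59 CPM), but not in Glul or Lgr5.

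**Figure D1:**
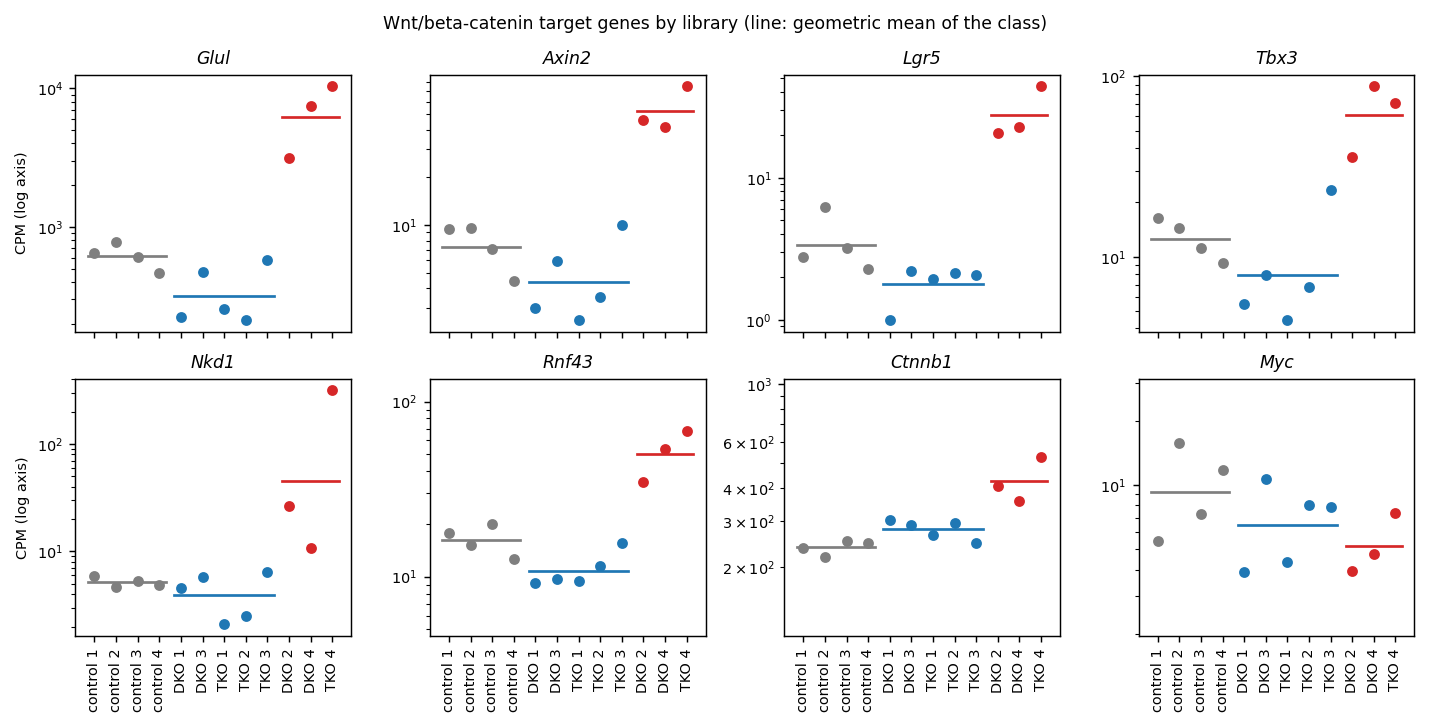
CPM on a log axis for 8 genes in each of the 12 libraries, grey for control livers, blue for the 5 other tumors and red for the 3 high tumors, with a line at each class's geometric mean. Glul, Axin2, Lgr5, Tbx3, Nkd1, Rnf43 and Ctnnb1 show all 3 red points above all blue points, whereas in Myc they overlap.

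Most Wnt feedback and transcription targets besides Axin2, Lgr5 and Tbx3 were also higher in the 3 tumors, in the same contrast. The tumors were chosen as high in beta-catenin targets, so these values describe the choice and are no independent support for it. Of 18 targets listed, 14 passed the filter, and Axin2, Lgr5 and Tbx3 are 3 of them. Among the other 11, 10 had a positive fold change (48.5% of all tested genes had), and in 7 every value of the 3 tumors lay above every value of the other 5, with a median log2 fold change of 2.23 against -0.01 over all tested genes. Over all 13882 genes, 582 (4.19%) were separated in this way upward and 445 (3.21%) downward, 7.4% in all. Of these 11 targets, those above every control liver numbered 7 in DKO 2, 7 in DKO 4 and 9 in TKO 4, against 0 to 2 in each of the other tumors, the 2 being in TKO 3. No share over all genes was computed for these counts. With the 3 genes of the rule included, the median of the 14 was 2.77.

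Among the feedback inhibitors, Nkd1, which binds Dishevelled, measured 5.93, 4.67, 5.29 and 4.83 CPM in the control livers, 4.60, 5.80, 2.11, 2.49 and 6.44 CPM in the other tumors and 26.7, 10.7 and 316 CPM in the 3 high tumors. Its fold change of 4.78 ± 0.83 rested largely on TKO 4, being 2.11 without that library, though DKO 2 and DKO 4 also stood above all other libraries. Notum, a secreted enzyme that inactivates Wnt ligands, measured 20.2, 55.2, 30.6 and 25.5 CPM in the control livers, 6.44, 11.8, 7.84, 17.6 and 21.6 CPM in the other tumors and 83.9, 56.3 and 127 CPM in the 3 high tumors. Here DKO 4 was close to control liver 2, and 4 of the other 5 tumors lay under every control liver. Rnf43 and Znrf3 encode the ubiquitin ligases that remove Frizzled receptors. Rnf43 measured 17.8, 15.2, 20.1 and 12.6 CPM in the control livers, 9.20, 9.70, 9.41, 11.4 and 15.5 CPM in the other tumors and 34.6, 53.5 and 67.5 CPM in the 3 high tumors, with a fold change of 2.23 ± 0.23. Znrf3 measured 6.82, 8.24, 8.95 and 9.59 CPM in the control livers, 7.21, 5.68, 6.03, 9.03 and 7.44 CPM in the other tumors and 15.7, 20.9 and 30.4 CPM in the 3 high tumors, with a fold change of 1.66 ± 0.22. In both genes the order among the high tumors was DKO 2, DKO 4 and TKO 4 from lowest to highest.

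Of the transcription factors, Sp5, whose promoter is given above, measured 0.519, 1.23, 0.949 and 0.220 CPM in the control livers, 0.307, 0.296, 0.121, 0.213 and 0.920 CPM in the other tumors and 2.21, 1.59 and 10.4 CPM in the 3 high tumors. Its counts are low, DKO 4 was not far from control liver 2, and the fold change of 3.68 ± 0.72 was 2.35 without TKO 4. Tcf7, which encodes TCF1, measured 6.82, 6.64, 5.08 and 3.88 CPM in the control livers, 6.44, 4.73, 7.42, 13.2 and 4.37 CPM in the other tumors and 17.6, 23.2 and 19.8 CPM in the 3 high tumors, and the nearest other tumor was TKO 2. Tnfrsf19, a receptor of the TNF family, measured 12.3, 7.99, 10.9 and 4.39 CPM in the control livers, 6.21, 12.5, 8.32, 5.61 and 5.06 CPM in the other tumors and 47.5, 48.7 and 82.6 CPM in the 3 high tumors, all 3 high tumors being at least 3 times any other library. Lef1, Apcdd1, Dkk4 and Fzd10 did not pass the filter. Lef1 had 24, 5 and 95 reads in DKO 2, DKO 4 and TKO 4 and 0 to 4 in the other 9 libraries, and Apcdd1 had 106 reads in TKO 4 and 1 to 6 elsewhere. Wif1, a secreted Wnt inhibitor, was high in TKO 4 alone, at 11.4 CPM against 1.42 in DKO 2, 0.236 in DKO 4 and up to 2.70 in the control livers, and its fold change of 4.47 ± 1.15 was 2.04 without that tumor. The targets that overlapped were Ccnd1 (0.72 ± 0.47), Zfp703 (0.17 ± 0.39) and Myc (-0.38 ± 0.40), besides Wif1. Myc measured 5.41, 15.7, 7.25 and 11.7 CPM in the control livers, 3.91, 10.6, 4.34, 8.03 and 7.82 CPM in the other tumors and 3.95, 4.72 and 7.39 CPM in the 3 high tumors, so the 3 tumors sat within the range of the others.

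Upstream of these targets, 3 of 47 tested genes of the pathway were separated (6.38%, against 7.4% of all genes). Of 12 tested Wnt receptors of 15 listed, none was separated, and the median log2 fold change was -0.06 with a range from -0.61 ± 0.21 for Fzd5 to 0.31 ± 0.30 for Lrp5. Of 7 tested Wnt ligands, R-spondins and secretion factors of 16 listed, only Wnt5a was separated, at 5.30, 3.77 and 7.61 CPM in DKO 2, DKO 4 and TKO 4, against 2.27 to 3.76 CPM in the other tumors and 1.90 to 2.95 CPM in the control livers, so that DKO 4 barely passed the highest other tumor. The list's median was -0.84, and -0.53 without TKO 3. Rspo3, Wnt2 and Wnt9b, which endothelial cells of the central vein are known to make, had fold changes of -1.28 ± 0.53, -1.09 ± 0.66 and -0.84 ± 0.45, with overlapping values. Among 22 tested members of the destruction complex and the effectors, the median was 0.03 and 2 were separated. Ctnnb1, which encodes beta-catenin, measured 235, 218, 250.1 and 247 CPM in the control livers, 301, 289.7, 265, 294 and 247 CPM in the other tumors and 407, 358 and 524 CPM in the 3 high tumors, a fold change of 0.62 ± 0.15. The control livers and the other tumors both lay below DKO 4, the lowest of the 3. Ctnnbip1, an inhibitor that keeps beta-catenin from TCF factors, was lower, at 5.22, 4.25 and 3.51 CPM in DKO 2, DKO 4 and TKO 4, against 7.81 to 11.9 CPM in the other tumors and 5.56 to 14.6 CPM in the control livers. Apc, Axin1, Gsk3a and Gsk3b, all of the destruction complex, had fold changes of -0.06 ± 0.17, 0.04 ± 0.13, 0.07 ± 0.17 and 0.18 ± 0.21. Tcf7l1 was at the low end of the list (-1.27 ± 0.40) with overlapping values. Of 6 tested secreted inhibitors of 11 listed none was separated.

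The pericentral genes of the hepatocyte went with the Wnt targets. All 24 listed were tested, 23 had a positive fold change, 14 were separated upward (background 4.19%) and the median was 2.14. Without Glul, which the rule used, 13 of 23 were separated and the median was 2.11. Rhbg, an ammonium transporter, measured 10.8, 7.62, 7.25 and 9.15 CPM in the control livers, 6.75, 6.80, 6.39, 5.40 and 6.98 CPM in the other tumors and 81.7, 143 and 276 CPM in the 3 high tumors. All other tumors were below every control liver in Rhbg and the 3 high tumors at least 7 times above any, with a fold change of 4.69 ± 0.31. Slc1a2, the glutamate transporter of pericentral hepatocytes, measured 117, 110.0, 120.4 and 49.5 CPM in the control livers, 46.3, 63.7, 44.7, 32.1 and 134 CPM in the other tumors and 475, 426 and 2889.6 CPM in the 3 high tumors. TKO 4 was here about 6 times the other high tumors, the fold change of 4.30 ± 0.65 being 2.80 without it, and TKO 3 slightly passed the control livers. Lect2, a secreted protein of hepatocytes, measured 66.9, 124, 108 and 82.4 CPM in the control livers, 15.7, 30.2, 21.2, 15.9 and 44.3 CPM in the other tumors and 127, 189 and 253 CPM in the 3 high tumors. In Lect2 the other tumors were far below the control livers and DKO 2 barely above them.

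DKO 2 was the lowest of the 3 high tumors in the 4 metabolic genes that follow. Cyp1a2, a P450 of drug metabolism, measured 366, 773, 834 and 703 CPM in the control livers, 102, 346, 144, 135 and 539 CPM in the other tumors and 773, 2681 and 3979 CPM in the 3 high tumors. Cyp7a1, the rate-limiting enzyme of bile acid synthesis, measured 580.1, 407, 371 and 327 CPM in the control livers, 41.7, 148, 164, 74.9 and 196 CPM in the other tumors and 334, 731 and 732 CPM in the 3 high tumors. In Cyp1a2 and Cyp7a1 DKO 2 was within the range of the control livers and separated only from the other tumors. Oat, ornithine aminotransferase, measured 851, 827, 1079.6 and 687 CPM in the control livers, 134, 389, 95.1, 64.0 and 698 CPM in the other tumors and 284, 5998 and 6758 CPM in the 3 high tumors, so its fold change of 3.98 ± 0.88 came from DKO 4 and TKO 4, while DKO 2 was below DKO 3, TKO 3 and every control liver. Cyp2e1, the abundant pericentral P450, measured 7172, 11821, 9992 and 6877 CPM in the control livers, 547, 2604, 1454, 1209 and 6929 CPM in the other tumors and 5167, 10839.7 and 12003 CPM in the 3 high tumors, where TKO 3 lay above DKO 2. Relative to control livers the list's median log2 fold change was 1.17 for the 3 tumors and -0.86 for the other 5. Over all tested genes both medians were 0.02. By these medians the distance between the classes included a low level in the other tumors. In 6 members all 5 other tumors lay below every control liver, a count for which no share over all genes was computed. Hamp, the iron hormone hepcidin, was the 1 member lower in the 3 tumors (-1.73 ± 0.73), with overlapping values.

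**Figure D2:**
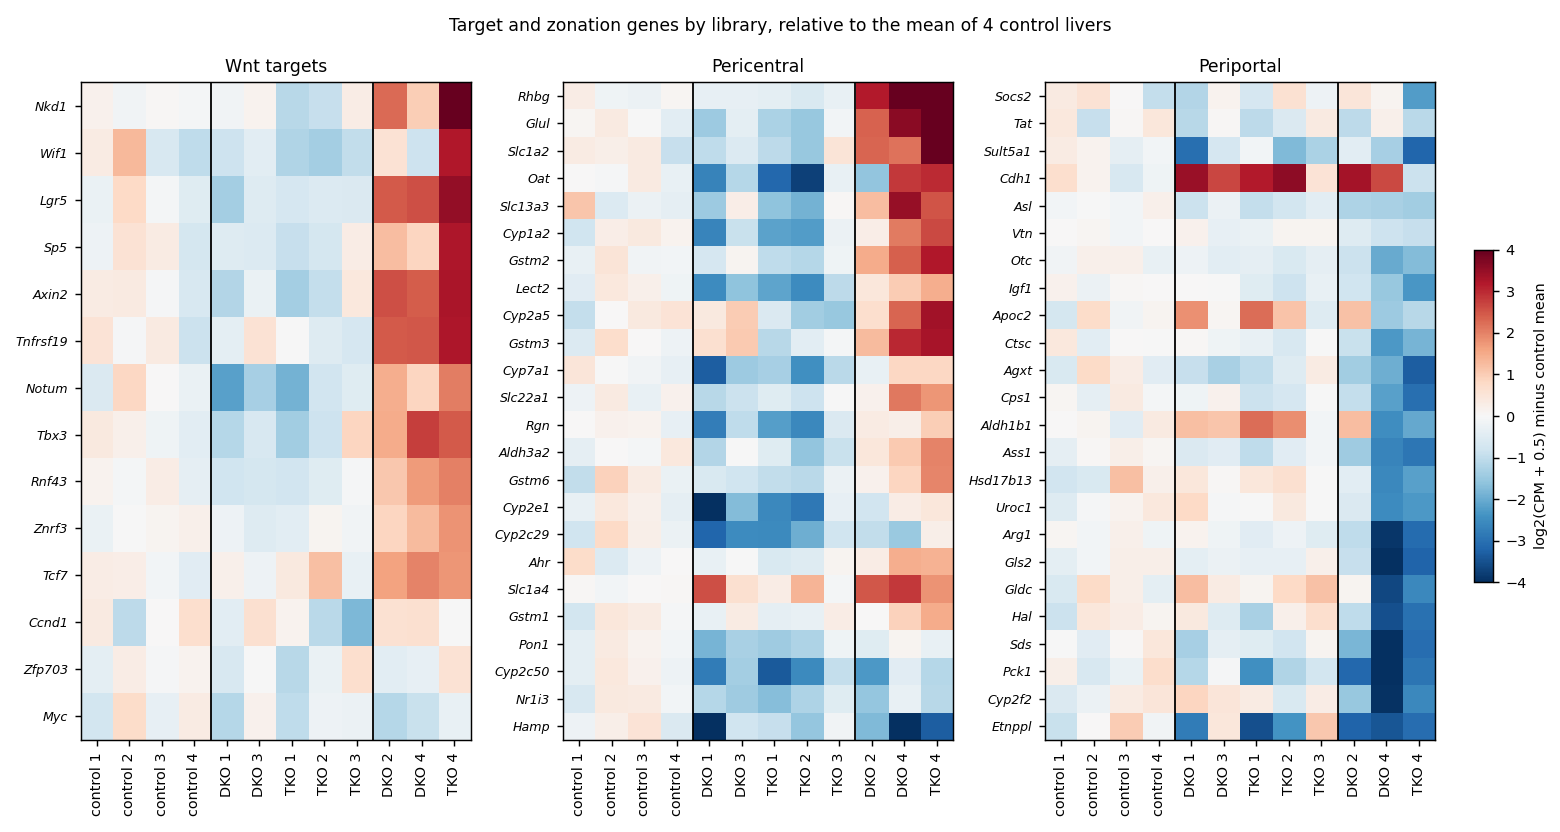
Each row is a gene and each column a library, coloured by log2(CPM + 0.5) minus the mean of the 4 control livers, with control livers, the 5 other tumors and the 3 high tumors divided by lines and genes ordered by fold change. The Wnt targets and pericentral genes are red in the 3 right columns and mostly pale or blue in the 5 middle ones, and the periportal genes are blue mainly in DKO 4 and TKO 4 and paler in DKO 2.

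The periportal genes mirrored this. All 24 tested members had a negative fold change, 15 were separated downward (background 3.21%), and the median was -1.57, or -2.41 without DKO 2. Against control livers the median was -1.59 in the 3 tumors and -0.23 in the other 5, where both medians over all tested genes were 0.02. In 17 members the 3 tumors all lay below every control liver, a count for which no share over all genes was computed. Cyp2f2, a P450 of periportal hepatocytes, measured 827, 1061, 1575 and 1719 CPM in the control livers, 2256, 1739.8, 1555, 815 and 1529 CPM in the other tumors and 437, 79.3 and 207 CPM in the 3 high tumors. Pck1, an enzyme of gluconeogenesis, measured 1475, 795, 1029.6 and 2024 CPM in the control livers, 567, 1203, 228, 542 and 759 CPM in the other tumors and 142, 62.8 and 165 CPM in the 3 high tumors. Sds, serine dehydratase, measured 110.4, 81.1, 115 and 154 CPM in the control livers, 44.0, 86.7, 80.2, 65.2 and 120.3 CPM in the other tumors and 30.9, 4.19 and 13.1 CPM in the 3 high tumors. In all 3 genes DKO 4 was the lowest library. Gls2, the liver glutaminase, measured 269.7, 323, 415 and 416 CPM in the control livers, 264, 296, 277, 281 and 399 CPM in the other tumors and 184, 15.1 and 37.8 CPM in the 3 high tumors. Arg1, the last enzyme of the urea cycle, measured 1761, 1565, 1909 and 1479 CPM in the control livers, 1822, 1489.7, 1209, 1461 and 1192 CPM in the other tumors and 826, 112 and 196 CPM in the 3 high tumors. For Gls2 and Arg1 DKO 2 lay nearer to the other tumors than to DKO 4 or TKO 4. Etnppl had the lowest fold change of the list (-2.95 ± 1.02) but overlapped, since DKO 1, TKO 1 and TKO 2 were low as well. Cdh1, E-cadherin, was distributed otherwise. It was at 145 and 90.6 CPM in DKO 2 and DKO 4 and 159.8, 92.1, 129.5 and 171 CPM in DKO 1, DKO 3, TKO 1 and TKO 2, but 7.53 in TKO 4, 20.9 in TKO 3 and 8.88 to 22.5 CPM in the control livers.

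Glutamine and ammonia handling held members of both zones, and its list split accordingly. Of 22 tested members 6 were separated upward (4.19% of all genes) and 7 downward (3.21%), around a median of -0.05. The upward members were Rhbg, Glul and Slc1a2, given above, with the amino acid transporters Slc1a5 and Slc7a5 and the proline enzyme Pycr1. Among them Glul had chosen the tumors. Slc1a5 measured 12.3, 20.1 and 34.2 CPM in DKO 2, DKO 4 and TKO 4, against 1.46 to 5.06 CPM in the other tumors and 2.20 to 7.34 CPM in the control livers. Slc7a5 measured 11.7, 30.5 and 30.3 CPM in DKO 2, DKO 4 and TKO 4, against 2.76 to 7.90 CPM in the other tumors and 4.34 to 9.20 CPM in the control livers. The downward members were the urea cycle enzymes Cps1 (-1.54 ± 0.44), Otc (-1.07 ± 0.26), Ass1 (-1.68 ± 0.34), Asl (-0.69 ± 0.18) and Arg1 (-1.92 ± 0.52), with Gls2 (-1.94 ± 0.60) and the glutamine transporter Slc38a3 (-0.67 ± 0.23). Cps1, which fixes ammonia into the urea cycle, measured 3859, 2852, 4727 and 3500.1 CPM in the control livers, 3294, 4099, 2029, 2315 and 3654 CPM in the other tumors and 1916, 809.9 and 453 CPM in the 3 high tumors. All 5 urea cycle enzymes named were thus lower in each of the 3 tumors than in any other tumor, with DKO 2 the highest of the 3 in each.

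Of 34 tested xenobiotic receptor and P450 genes, 24 had a positive fold change, 7 were separated upward (4.19% of all genes) and 1, Cyp2f2, downward (3.21%), and the median was 0.64. Against control livers the list's median was -0.01 in the 3 tumors and -0.75 in the other 5. Members of the list went both ways in the 3 tumors, which all lay above every control liver in 4 and below in 5. The other 5 tumors all lay above every control liver in 0 members and below in 7. No share over all genes was computed for these counts against control livers. Besides Cyp1a2, the separated members included Cyp1a1 at 15.9, 45.6 and 60.0 CPM in DKO 2, DKO 4 and TKO 4, against 1.69 to 10.4 CPM in the other tumors and 8.45 to 15.7 CPM in the control livers, and Cyp2c55 at 14.7, 14.9 and 17.6 CPM in DKO 2, DKO 4 and TKO 4, against 0.920 to 3.56 CPM in the other tumors and 1.54 to 3.93 CPM in the control livers. Cyp2c38 (3.00 ± 0.33) and Cyp2c39 (2.81 ± 0.34) were separated too, but they are close paralogs and the treatment of reads that match several genes is not given in the sources used here, so the split of reads between them is uncertain. Ahr, the receptor that controls Cyp1a1 and Cyp1a2, measured 50.1, 113 and 107 CPM in DKO 2, DKO 4 and TKO 4, against 26.6 to 44.0 CPM in the other tumors and 28.0 to 67.9 CPM in the control livers. The constitutive androstane receptor Nr1i3 and the pregnane X receptor Nr1i2 had fold changes of 0.25 ± 0.33 and 0.15 ± 0.27, and their usual targets Cyp2b10 (-0.17 ± 0.57) and Cyp3a11 (0.62 ± 0.34) overlapped between the classes. Of 21 tested glutathione transferases, 4 were separated upward, Gstm2 (3.03 ± 0.37), Gstm3 (2.56 ± 0.50), Gstm6 (1.90 ± 0.41) and Gsta3 (1.19 ± 0.26), the Gstm genes again being close paralogs, and the lowest was Gsto1 (-0.42 ± 0.22).

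Of 17 tested bile acid genes 4 were separated upward (4.19% of all genes) and 1 downward (3.21%), around a median of 0.04. Abcc4, an export pump of the sinusoidal membrane, measured 6.67, 2.70, 4.00 and 6.15 CPM in the control livers, 4.75, 7.10, 3.38, 3.27 and 4.60 CPM in the other tumors and 12.4, 102 and 116 CPM in the 3 high tumors. It stood more than 8 times higher in DKO 4 and TKO 4 than in DKO 2. Slco1b2, an uptake transporter, and Abcc2, the canalicular export pump, were separated with fold changes of 1.46 ± 0.35 and 0.90 ± 0.21. In Slco1b2 the other tumors (407 to 1042 CPM) all lay below the control livers (1713 to 1841 CPM), and DKO 2 was close to TKO 3. Baat, which conjugates bile acids, was lower (-0.68 ± 0.19). The lowest were Abcc3 (-1.18 ± 0.54) and the sterol hydroxylase Cyp8b1 (-1.04 ± 0.87), both with overlapping values.

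The largest fold changes over the whole table went beyond the listed pathways. In all, 183 genes were separated and at least 2-fold higher (1.32% of those tested) and 159 separated and at least 2-fold lower (1.15%). By edgeR's quasi-likelihood fit at an adjusted p under 0.05, 166 genes differed (1.2%), 136 higher (0.98%) and 30 lower (0.216%), which describes these 8 tumors and is no test of the division. That count was 57 without TKO 4 and 379 without DKO 2. Of separated genes with a mean of at least 5 CPM in the higher class, the highest included Sult3a2, Sult2a6, Atp10a, Nkd1, Kif26b, Rhbg, Elapor2, Nptx1, Sult1e1, Glul and Slc1a2. Atp10a, a phospholipid-transporting ATPase, measured 2.67, 0.492, 1.15 and 0.732 CPM in the control livers, 0.767, 1.89, 1.45, 0.640 and 1.07 CPM in the other tumors and 23.3, 24.0 and 53.8 CPM in the 3 high tumors. Kif26b, a kinesin family member, measured 0.742, 0.369, 0.949 and 0.805 CPM in the control livers, 0.307, 0.473, 0.543, 0.426 and 0.614 CPM in the other tumors and 4.03, 13.6 and 21.9 CPM in the 3 high tumors. Nptx1, a neuronal pentraxin, measured 0.964, 0.246, 0.881 and 0.732 CPM in the control livers, 0.920, 0.651, 0.543, 0.497 and 0.537 CPM in the other tumors and 12.9, 5.6 and 28.0 CPM in the 3 high tumors. These 3 genes were under 3 CPM in every other library. Elapor2 had the same form, at 5.54, 10.2 and 12.7 CPM in DKO 2, DKO 4 and TKO 4, against 0.181 to 0.537 CPM in the other tumors and 0.246 to 0.745 CPM in the control livers. Sult1e1, the estrogen sulfotransferase, measured 3.93, 4.43, 2.03 and 0.879 CPM in the control livers, 2.22, 2.13, 0.482, 1.14 and 0.0767 CPM in the other tumors and 35.3, 26.2 and 21.6 CPM in the 3 high tumors, and here DKO 2 was the highest.

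Single tumors carried some of these values. Sult3a2, an amine sulfotransferase, measured 1.27, 145 and 1.94 CPM in DKO 2, DKO 4 and TKO 4, against 0.153 to 1.15 CPM in the other tumors and 0.246 to 2.00 CPM in the control livers, so its fold change of 6.07 ± 1.25 is that of DKO 4 and was 1.13 without it, and its paralog Sult3a1 had 4.90, 479.9 and 7.39 CPM in the same order. Sult2a6, a hydroxysteroid sulfotransferase, measured 22.9, 201 and 191 CPM in DKO 2, DKO 4 and TKO 4, against 0.230 to 4.75 CPM in the other tumors and 0.123 to 3.71 CPM in the control livers. Reads of these sulfotransferases may be shared with near-identical copies.

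The 12 lowest were Bdh2, Cyp2f2, Colec10, Aspg, Wfdc21, Pck1, Irf7, Fgfr2, Sds, Cryl1, Slc22a7 and Raet1e. Bdh2, a short-chain dehydrogenase, measured 6.16, 7.99, 17.1 and 12.6 CPM in the control livers, 6.21, 7.63, 5.31, 4.05 and 11.5 CPM in the other tumors and 1.90, 0.413 and 0.746 CPM in the 3 high tumors. Aspg, an asparaginase, measured 58.1, 82.9, 80.4 and 85.4 CPM in the control livers, 67.1, 52.2, 59.4, 89.3 and 122 CPM in the other tumors and 28.7, 4.01 and 9.10 CPM in the 3 high tumors. Fgfr2, a receptor of fibroblast growth factors, measured 29.0, 36.8, 38.8 and 52.1 CPM in the control livers, 59.6, 43.4, 33.0, 39.7 and 42.0 CPM in the other tumors and 17.5, 2.30 and 6.71 CPM in the 3 high tumors. DKO 4 was the lowest library in all 3 of these genes and DKO 2 the highest of the 3 tumors. Wfdc21, a secreted WAP-domain protein, differed from this order, at 18.7, 18.9 and 19.9 CPM in DKO 2, DKO 4 and TKO 4, against 59.1 to 217 CPM in the other tumors and 238 to 477 CPM in the control livers, the 3 tumors being alike. Irf7, the interferon regulatory factor, measured 79.9, 8.97, 11 and 27.5 CPM in the control livers, 10.8, 78.1, 8.56, 12.9 and 19.3 CPM in the other tumors and 4.51, 5.01 and 5.74 CPM in the 3 high tumors, and its fold change of -2.35 ± 0.89 was -1.34 without DKO 3. Colec10 (-2.59 ± 0.70), Cryl1 (-2.30 ± 0.40), Slc22a7 (-2.11 ± 0.67) and Raet1e (-2.05 ± 0.53) completed the list, with Slc22a7 in DKO 2 at 17.0 CPM against 17.7 in TKO 2. Slc22a7, an organic anion transporter, was at -1.36 without TKO 3.

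None of the listed S and G2/M, hepatocyte identity or oncofetal genes was separated, where 7.4% of all genes were. At that share few separated genes arise in lists this short, so their absence says little about these programs. Of 33 S and G2/M genes 28 had a positive fold change (48.5% of all tested genes had), and the median was 0.23. DKO 2 was the highest of all libraries in 19 of them and TKO 1 in 11. Mki67, the proliferation marker, measured 2.00, 1.48, 0.678 and 1.98 CPM in the control livers, 11.7, 6.09, 10.3, 4.76 and 2.76 CPM in the other tumors and 23.8, 4.30 and 8.28 CPM in the 3 high tumors. DKO 4 was below 6 of the other 7 tumors for Mki67, and was within the range of the control livers for the replication gene Mcm2 (11.1 CPM against 5.83 to 20.7 CPM). Without DKO 2 the median of this list turned to -0.33. Ends of the list were Kif11 (0.77 ± 0.45) and Cenpa (-0.54 ± 0.41). Of 14 tested ERK response genes 1 was separated, upward (4.19% of all genes were). It was Dusp6, a phosphatase that limits ERK, at 109, 103 and 79.9 CPM in DKO 2, DKO 4 and TKO 4, against 36.2 to 76.8 CPM in the other tumors and 18.8 to 41.0 CPM in the control livers. The highest of this list was Ier3 (1.23 ± 0.48) and the lowest Egr1 (-1.08 ± 0.83). None of 15 lipogenesis genes was separated (7.4% of all genes were), from Acacb (1.44 ± 0.58) to Pnpla3 (-0.41 ± 0.90).

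None of 24 hepatocyte identity genes was separated either (7.4% of all genes were). Of these, 21 had a negative fold change, as had 7150 of all 13882 tested genes, and the median was -0.45. Hnf4a, the main hepatocyte transcription factor, overlapped between the classes, at 627, 837 and 541 CPM in DKO 2, DKO 4 and TKO 4, against 626 to 814 CPM in the other tumors and 553 to 717 CPM in the control livers. Serpina1a, the secreted protease inhibitor, measured 7706, 9060.4, 9549.9 and 7048 CPM in the control livers, 14234, 8766, 13183, 17039 and 9814 CPM in the other tumors and 12195, 2248 and 1762 CPM in the 3 high tumors, low in DKO 4 and TKO 4 but not in DKO 2. Of the 18 tested oncofetal and progenitor genes none was separated, and the median was -0.65, or -0.07 without DKO 3 and -0.28 without DKO 4. Afp, alpha-fetoprotein, measured 2.37, 3.81, 2.44 and 4.61 CPM in the control livers, 29.7, 5.91, 3.80, 6.25 and 1.69 CPM in the other tumors and 29.7, 104 and 4.03 CPM in the 3 high tumors, so it was high in DKO 1, DKO 2 and DKO 4. Tff3 was low in DKO 4 and TKO 4 (9.85 and 9.92 CPM) and at 124 CPM in DKO 2, against 589.9 and 382 CPM in TKO 1 and TKO 2. Igf2 had the lowest fold change (-2.74 ± 1.75) but ran from 0.301 to 45.8 CPM within the other tumors. Of 18 acute-phase genes 14 had a negative fold change, and 2 were separated downward (3.21% of all genes), Hp (-0.98 ± 0.49) and Hpx (-1.13 ± 0.53). The list's median was -0.84 (-0.41 without DKO 1 and -0.47 without TKO 4), with Orm1 lowest (-1.72 ± 0.72) and Saa2 highest (0.71 ± 0.68).

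Genes that differ between the sexes in liver varied among the tumors, and most overlapped between the classes. All 12 libraries held Y-linked transcripts, and Xist had 1 to 6 reads in each. None of 15 male-biased genes was separated (7.4% of all genes were), from C6 (0.62 ± 0.63) to Cyp2u1 (-1.97 ± 0.66). Their median was -0.38, and ran from -1.59 without TKO 4 to 0.14 without TKO 3. Of 16 female-biased genes 12 had a positive fold change (48.5% of all tested genes had), and the median was 0.74 (0.47 without DKO 4 and 0.98 without DKO 2). Only Cyp2c40 of these was separated, upward (1.21 ± 0.30), where 4.19% of all genes were. The list ran from Sult3a1 (4.92 ± 1.19) to Cyp17a1 (-4.55 ± 1.72). The value of Cyp17a1 was that of DKO 1 alone, at 489 CPM against 1.46 to 9.24 CPM in the other 11 libraries. DKO 4 had the lowest values of all libraries in Cyp4a12a (30.0 CPM against 476 to 798 CPM in the control livers) and Mup7 (136 against 2676 to 6814 CPM).

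**Figure D3:**
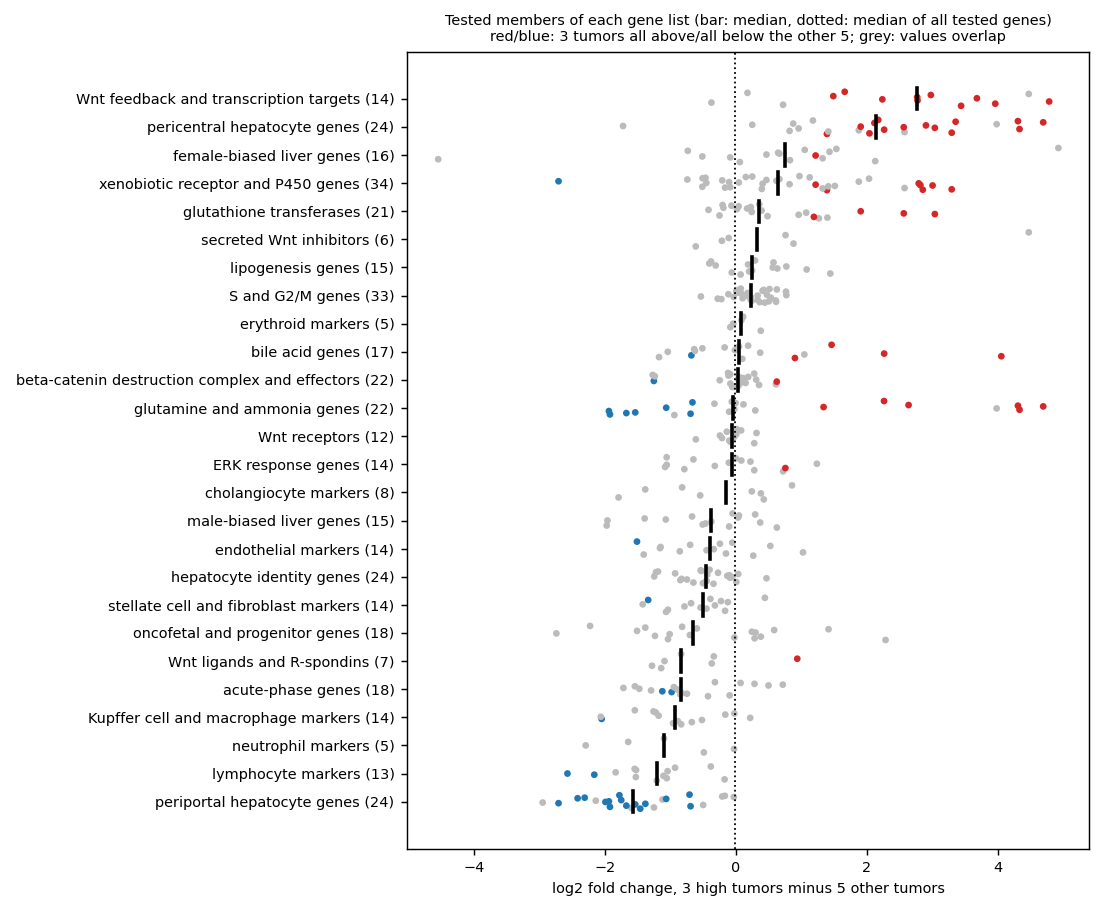
Each point is a tested gene placed at its log2 fold change between the 3 high tumors and the other 5, by gene list (number tested in brackets), red where the 3 lie above all 5, blue where they lie below and grey where values overlap, with a bar at the list's median and a dotted line at the median of all genes. The Wnt targets (median 2.77) and pericentral genes (2.14) stand at the top and the periportal genes (-1.57) at the bottom, and the red points of glutamine and ammonia genes are matched by blue ones.

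Of 73 tested markers of other cells in the tissue 5 were separated (6.85%, against 7.4% of all genes), all downward. In these bulk samples, fewer cells of a type and less RNA per cell cannot be told apart. Of all 13882 tested genes 7150 had a negative fold change, and members of a list are not independent replicates. Of 14 Kupffer cell and macrophage markers 13 had a negative fold change and the median was -0.93, and only Cd5l was separated. Clec4f, the defining Kupffer marker, measured 193, 68.6, 94.4 and 183 CPM in the control livers, 40.5, 168, 56.6, 116 and 201 CPM in the other tumors and 49.7, 5.84 and 28.3 CPM in the 3 high tumors. Cd5l, secreted by Kupffer cells, measured 145, 52.9, 54.2 and 117 CPM in the control livers, 54.3, 96.2, 39.3, 105 and 173 CPM in the other tumors and 36.9, 5.6 and 25.5 CPM in the 3 high tumors. DKO 4 was far below all other libraries in both, while the general macrophage genes Cd68 and Lyz2 had fold changes of 0.22 ± 0.32 and -0.03 ± 0.29. The summed level of the list ran from 185 to 286 CPM in the 3 high tumors, from 272 to 826 CPM in the other tumors and from 308 to 767 CPM in the control livers. All 13 tested lymphocyte markers of 19 listed had a negative fold change (median -1.21, and -0.78 without DKO 3), Cd8a and Cd8b1 being separated at 0.158 to 0.373 CPM and 0.0590 to 0.224 CPM in the 3 tumors against 0.383 to 2.29 CPM and 0.230 to 2.41 CPM in the other 5. All 5 tested neutrophil markers of 10 listed had a negative fold change too (median -1.10) and none was separated. The part of these cells in the results above was not tested.

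Endothelial and stellate markers had medians of -0.39 and -0.50 and 1 separated gene of 14 each (7.14%, against 7.4% of all genes). The endothelial median was -0.23 without TKO 3 and -0.59 without DKO 2, and the stellate median was -0.20 without DKO 3, -0.28 without DKO 4 and -1.0 without TKO 4. Vwf, the endothelial clotting factor, measured 4.98, 2.36 and 5.0 CPM in DKO 2, DKO 4 and TKO 4, against 5.07 to 17.0 CPM in the other tumors and 4.43 to 8.38 CPM in the control livers. Tagln, a smooth muscle gene, measured 1.98, 0.943 and 2.16 CPM in DKO 2, DKO 4 and TKO 4, against 2.84 to 5.50 CPM in the other tumors and 1.33 to 2.95 CPM in the control livers. The sinusoidal genes Clec4g, Oit3 and Stab2 were lowest of all libraries in DKO 4, with Clec4g at 41.0, 33.6, 32.6 and 42.1 CPM in the control livers, 15.7, 34.3, 34.1, 45.3 and 82.5 CPM in the other tumors and 32.7, 2.06 and 13.3 CPM in the 3 high tumors. Pecam1 and Emcn were instead highest in DKO 4, at 69.5 and 14.1 CPM against 10.6 to 22.2 CPM and 1.23 to 2.15 CPM in the control livers. The 14 endothelial markers summed to 261 to 268 CPM in the 3 high tumors, 243 to 519 CPM in the other tumors and 213 to 319.7 CPM in the control livers, and the stellate markers to 266 to 448 CPM, 299 to 728 CPM and 329 to 549.6 CPM. Of 8 tested cholangiocyte markers and 5 erythroid markers none was separated, with medians of -0.15 and 0.08. Whether cell makeup contributed to the Wnt target or zonation values was not tested.

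**Figure D4:**
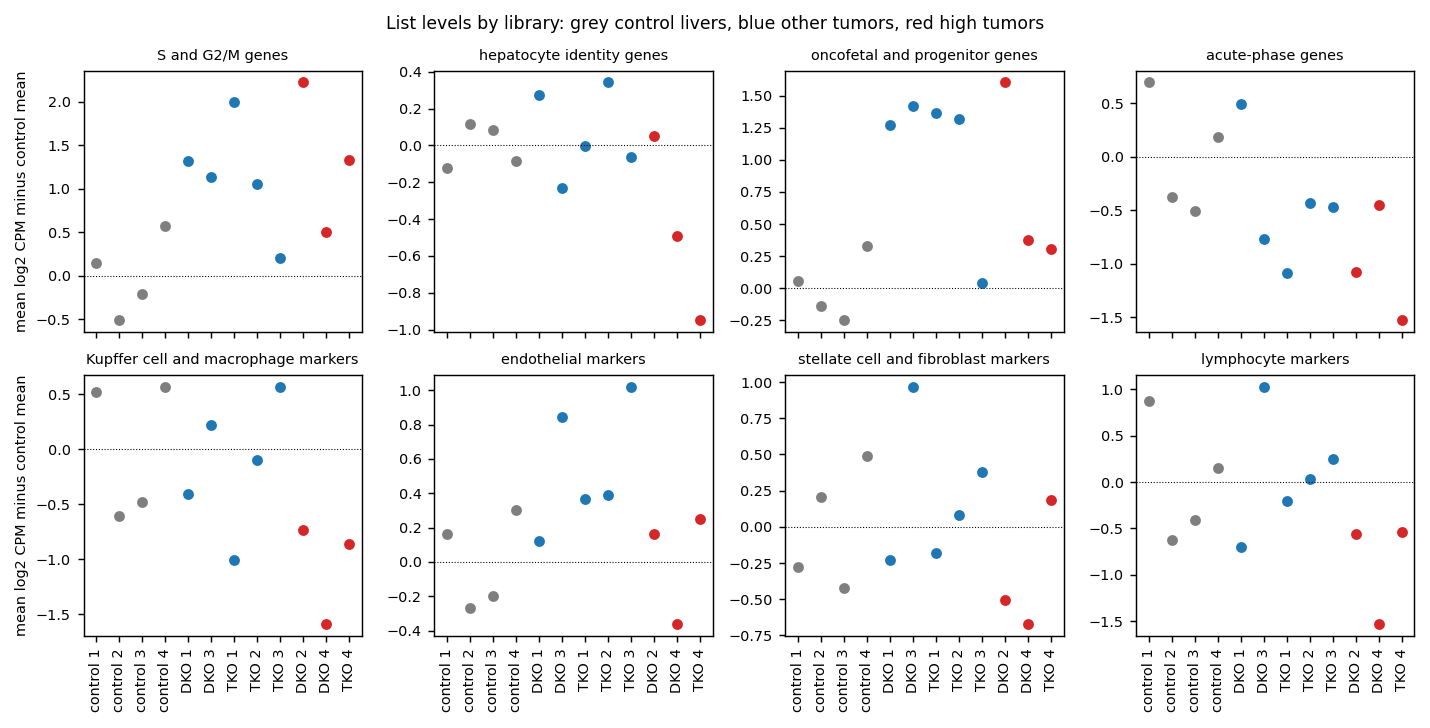
Mean log2 CPM of 8 gene lists in each library, minus the mean of the 4 control livers, grey for control livers, blue for the other tumors and red for the 3 high tumors. The red points overlap the blue ones in all 8 panels, DKO 4 is the lowest library for Kupffer, endothelial, stellate and lymphocyte markers, and in the S and G2/M panel DKO 2 is the highest library.

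The 3 tumors were not alike among themselves. Of the 183 separated genes that were at least 2-fold higher, 121 were highest in TKO 4, 42 in DKO 4 and 20 in DKO 2, and 120 were lowest in DKO 2. Of the 159 lower genes, 92 were lowest in DKO 4, 52 in TKO 4 and 15 in DKO 2, while 88 were highest in DKO 2. In both directions DKO 2 thus most often held the value nearest to the other tumors. All 3 tumors lay above every control liver in 134 of the 183 genes and below every control liver in 111 of the 159. The mean log2 CPM of the periportal list was 7.35 in DKO 2, 5.79 in DKO 4 and 5.70 in TKO 4, against 7.76 to 8.08 in the other tumors and 7.90 to 8.17 in the control livers. The mean of the pericentral list was 8.32, 9.30 and 9.70 in the same 3 tumors, against 6.49 to 7.65 and 7.80 to 8.24.

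The labels give the genotype, so TKO and DKO tumors could be compared in the target genes. Of the 4 DKO tumors 2 were in the high class, and of the 4 TKO tumors 1, a division too small to test, since Fisher's exact test allows no two-sided p below 0.143 here. Over the 38 tested Wnt target and pericentral genes, TKO and DKO tumors differed in 0 at an adjusted p of 0.05 (edgeR's quasi-likelihood test, Benjamini-Hochberg adjustment over all genes, lowest adjusted p = 0.469 for Slc1a4, 1 gene at an unadjusted p under 0.05, and 0 genes by DESeq2). Over all genes the same comparison called 0 (0%). Glul averaged 2827 CPM in DKO and 2844 CPM in TKO tumors, a log2 difference of 0.01 ± 1.22 (SE), so that its SE alone exceeded 2-fold. Here p-values measure only the spread between these samples.

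Within each genotype the classes can be set against each other without shared libraries, as DKO 2 and 4 minus DKO 1 and 3, and as TKO 4 minus TKO 1, 2 and 3. The differences correlated at r = 0.346 across 13882 genes, and at r = 0.311 across the 13820 genes outside the target and zonation lists. Genes are not independent replicates, and all libraries share the TMM scaling. Of 306 genes at least 2-fold higher in the DKO difference, 254 (83.0%) were higher in the TKO difference too, where 49.8% of all genes were higher. Of 688 genes at least 2-fold lower, 465 (67.6%) were lower too, against 50.2% of all genes. The sign was the same in both genotypes for 56.6% of all genes. Leaving out the 4 genes of the rule, whose sign the choice of tumors fixed, it was the same for all 23 pericentral genes, 21 of 24 periportal genes and 9 of 11 Wnt targets. The high tumors of both genotypes were chosen by beta-catenin targets, with the same 4 genes as markers. Agreement in genes that vary with those 4 is therefore a description and no independent replication. The edgeR interaction term for unequal differences called 4 of 13882 genes (0.0288%), none of them a target, a zonation gene or a gene named above. Its TKO side rests on TKO 4 as a lone library in the chosen division, so this count describes that library and no p-value is given. Among the targets Nkd1 differed by 4.60 on the log2 scale, higher in TKO.

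**Figure D5:**
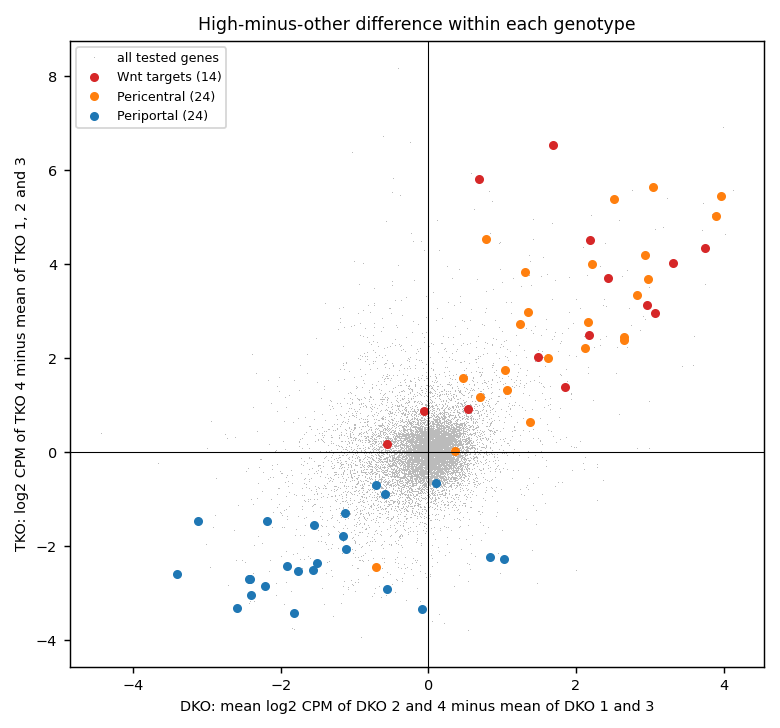
Each grey dot is a gene, with the high-minus-other difference in log2 CPM (prior count 2) in DKO tumors on the horizontal axis and in TKO tumors on the vertical axis, and the Wnt targets in red, pericentral genes in orange and periportal genes in blue. The red and orange points lie mostly in the upper right and the blue ones mostly in the lower left, around a correlation of 0.346 over all genes.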

How the data were processed

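Polyadenylated RNA of 4 control livers, 4 DKO tumors and 4 TKO tumors had been sequenced on the SOLiD platform. The authors mapped reads with BWA to mm9, counted them per gene with featureCounts, and deposited raw counts. Versions, strand setting and the handling of reads shared between genes are not given in the sources used here. Symbols were matched to 24191 of 26301 Entrez genes, which held 99.4% of counts.

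Genes were filtered with filterByExpr on the 3 label groups, which left 13882. Counts were scaled by TMM, and a quasi-likelihood model with 3 classes (control, high, other) was fitted to all 12 libraries in edgeR 4.0.16 (R 4.3.3), with Benjamini-Hochberg adjustment at 0.05. The SE of a log2 fold change was its size over the square root of F. TKO and DKO tumors were compared in the same way by label group, and an interaction term described unequal differences in both genotypes. Genes are called separated where the 3 and 5 CPM values do not overlap. List levels are mean log2 CPM with a prior count of 2. The edgeR script was tested on simulated counts. DESeq2 1.42.0 was an alternative.

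Members and gene lists were chosen with earlier results of these data known. Named genes were the rule's 4 genes, all Wnt targets, the deleted genes, the 12 highest and 12 lowest separated genes with at least 5 CPM, and for each other list its separated members (up to 4 by size in each direction) and both ends. Of the 12 highest, 1 is not reported here. Further list members were named after their values were seen. Promoters came from RefSeq (GRCm38.p6), and positions of genes from an mm9 annotation.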

Additional observations from a re-analysis of the deposited data

Results flagged for a closer look

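Of 108 list levels examined for a library standing apart from its group by Dixon's ratio, 2 did so, where chance alone flags about 1 group in 20. The mean log2 CPM of the periportal genes was 5.70 in TKO 4 against 7.76 to 8.07 in the other 3 TKO tumors. TKO 4 is the only high tumor of that group, so this value shows the chosen division again. The mean log2 CPM of the oncofetal and progenitor genes was 2.28 in TKO 3 against 3.51 to 3.66 in DKO 1, DKO 3, TKO 1 and TKO 2.

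For 4 genes the edgeR interaction term called the high-minus-other difference unequal in TKO and DKO tumors, and all 4 were high in TKO 4 alone. Since TKO 4 is the lone high TKO tumor and the division was chosen from the counts, the values describe that library and no p-value is given. Meg3, an imprinted noncoding RNA, measured 172 CPM in TKO 4 and 0.90 to 4.10 CPM in the other 11 libraries, with a log2 difference of 7.30 ± 0.70 (SE). Rian, an imprinted noncoding RNA of the same locus, measured 90.8 CPM against 0.28 to 2.44 CPM, with a difference of 7.39 ± 0.98. The gene with Entrez identifier 100041707, for which no symbol was matched, measured 60.7 CPM against 0.36 to 1.32 CPM, with a difference of 7.24 ± 0.59. Adgrg2, an adhesion G protein-coupled receptor of the X chromosome, measured 53.0 CPM against 0.36 to 3.93 CPM, with a difference of 6.20 ± 0.80.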

How the results depend on the processing

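The count of genes passing the adjusted threshold between the 3 and the 5 tumors (166, 136 higher and 30 lower) moved with the fit. Fitted to the 8 tumors alone it was 59 (57 and 2), with genotype as a term 54 (52 and 2), at an adjusted p under 0.1 it was 311 (230 and 81), and by DESeq2 500 (335 and 165), which held 162 of the 166. Scaling by total counts alone gave 19 lower genes, raised the percentage of calls that were higher from 81.9 to 89.1 and shifted the median of all genes by 0.18 on the log2 scale. With the replicate block in the 8 tumors the counts were 0, 0 and 0. Same-numbered DKO and TKO tumors came from different mice, their deviations correlated at 0.20, -0.01, 0.37 and 0.34, and the numbers were therefore not taken to pair them. Leaving out 1 tumor at a time gave 57 (without TKO 4) to 379 (without DKO 2) genes, 56 to 259 higher and 1 to 120 lower. It also gave 1197 to 2331 separated genes (1027 with all tumors). With CPM unchanged, fewer libraries cannot lower the number of separated genes in the same tested set, but TMM scaling was recomputed in each of these runs. Separated members then numbered 10 to 11 of the Wnt targets, 14 to 18 of the pericentral and 15 to 19 of the periportal genes. The median of the Wnt targets ran from 2.07 to 2.94. The newer dispersion estimate of edgeR, which gave 194 genes, and the counts of separated members without 1 tumor were chosen after seeing the data. Of 655 recomputed fold changes of named genes, 33 moved by more than the SD of the 3 tumors, and 3, all of Zfp703 (0.17), changed sign, to -0.18 with the replicate block, -0.015 without TKO 1 and -0.26 without TKO 4. Of 286 recomputed list medians 10 moved by more than their SD, and 10 lists, none with a median above 0.376 in size, changed sign in at least 1 alternative. Between TKO and DKO tumors 0 target genes passed in every alternative run. Low counts limit the precision for Sp5, Lef1, Cd8a and Cd8b1 among others.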

Other observations

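Meg3 and Rian lie in an imprinted cluster of mouse chromosome 12, and the neighbouring genes Rtl1, Dlk1, Dio3 and Begain were looked up after the values of Meg3 and Rian had been seen. Rtl1 had 40 reads in TKO 4 and 1 to 5 in each of the other 11 libraries. Dlk1 had 0 reads in TKO 4 and 0 to 7 elsewhere, Dio3 had 2 and 0 to 4, and Begain had 1 and 0 to 2. No test was run on these counts.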
